A study of Mus musculus with 4 samples.

Results

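The genes described here are 10 genes of the AP-1 transcription factor and of the immediate early response, *Fos*, *Fosb*, *Fosl2*, *Jun*, *Junb*, *Jund*, *Atf3*, *Egr1*, *Ier2* and *Ier3*, taken by symbol from the 25655 genes measured in cardiac neutrophils. All 10 were found, and all 10 were among the 6523 genes with a mean TPM (a transcript level divided by transcript length and scaled to the same total in every library) of the 4 libraries over 10. AP-1 is a dimer of basic leucine zipper proteins, usually a FOS protein with a JUN protein, and ATF3 can take the place of the FOS partner. Most of these genes are switched on within minutes of a stimulus through MAP kinases, ternary complex factors and serum response factor, without new protein synthesis, and many of their transcripts are short-lived. In neutrophils they respond to adhesion, cytokines and microbial products, and enzymatic digestion and sorting of a tissue are also known to induce them.

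RNA-Seq was performed on neutrophils from the hearts of WT and *Cd300a-/-* mice, which lack the inhibitory receptor CD300a in every cell, on day 3 after myocardial ischemia and reperfusion (MI/R). The mice were young adult males on a C57BL/6 background. CD45.2+CD11b+Ly6G+ cells were sorted into SiglecF hi and SiglecF lo neutrophils, which the labels call SiglecF-positive and SiglecF-negative, and the cells of 8 mice were pooled for each library. Each group has 1 library, so there is no replicate check of any difference and no p-value, and the values describe these 4 libraries. Every heart was minced, digested with collagenase and DNase at body temperature and dissociated by machine before the sort, and no library made without these steps was used here. Transcripts made in the heart and transcripts made during isolation therefore cannot be told apart. The depth, as the total of counts over genes, was 9631901 for WT SiglecF lo, 19278243 for WT SiglecF hi, 10988619 for *Cd300a-/-* SiglecF lo and 17632989 for *Cd300a-/-* SiglecF hi neutrophils. Each of the 10 genes had at least 3167 counts in every library. The 95% counting intervals given with ratios cover counting error only, and not the difference between mice or between preparations.

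*Cd300a* had 3024 counts in WT SiglecF lo and 6640 in WT SiglecF hi neutrophils, against 28 and 27 counts in the *Cd300a-/-* libraries, so its level followed the labelled genotype. *Siglecf* was at 11.3 TPM in WT SiglecF lo, 354 TPM in WT SiglecF hi, 15.3 TPM in *Cd300a-/-* SiglecF lo and 405 TPM in *Cd300a-/-* SiglecF hi neutrophils, so it followed the labelled subset. *Ly6g*, a marker of the sort, was at 330.4 TPM and 889 TPM in the WT and *Cd300a-/-* SiglecF lo libraries but at 11.1 TPM and 41.9 TPM in the SiglecF hi libraries. The other sorting markers, *Itgam* and *Ptprc*, were at 337 TPM or more in every library. The 10 neutrophil markers, led by *S100a9*, summed to 154506 TPM in WT SiglecF lo, 27544 TPM in WT SiglecF hi, 203314 TPM in *Cd300a-/-* SiglecF lo and 32346 TPM in *Cd300a-/-* SiglecF hi neutrophils. The 8 macrophage markers, led by *C1qb*, were all above the TPM limit and summed to 2817, 6926, 2656 and 6261 TPM in the same order. The 7 fibroblast markers, led by *Dcn*, summed to 926, 2008, 943 and 1393 TPM, and 5 of them passed the limit. Both sums of TPM were thus higher in the SiglecF hi libraries, although the fibroblast markers in *Cd300a-/-* neutrophils were not higher relative to all genes, as given with the subsets. The 7 endothelial cell markers, led by *Pecam1*, summed to 161, 89.4, 62.4 and 117 TPM, highest in WT SiglecF lo neutrophils, and the 4 monocyte markers, led by *Ly6c2*, to 916, 458, 847 and 439 TPM. The 6 cardiomyocyte markers, led by *Myl2*, summed to 43.6, 41.6, 25.3 and 62.9 TPM, and the 6 lymphocyte markers, led by *Cd3d*, to 6.44, 3.68, 8.13 and 11.7 TPM, with none of them over the limit. Among 6 eosinophil markers *Epx*, eosinophil peroxidase, had no count in any library, *Prg2* and *Ear1* had counts in WT SiglecF hi neutrophils only, and *Ear2* gave nearly all of the sum of 173, 116, 87.9 and 119 TPM. *Ccr3* had 25, 141, 33 and 141 counts and *Il5ra* 12, 11, 4 and 9 counts, both under the limit.

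The AP-1 and immediate early genes were among the most abundant transcripts in all 4 libraries. Their levels are given in TPM, a scale on which most genes were higher in SiglecF hi neutrophils, and relative to all genes the order of the subsets reversed beyond counting error for 4 of the 10 genes in WT and 6 in *Cd300a-/-*. Over all genes it reversed for 14.6% and 16.7%. The 10 genes have narrower intervals than less abundant genes. Shares of all genes called by an interval, here and below, are therefore not matched for precision. Together the 10 genes held 0.720% of all TPM in WT SiglecF lo, 0.887% in WT SiglecF hi, 0.649% in *Cd300a-/-* SiglecF lo and 0.964% in *Cd300a-/-* SiglecF hi neutrophils. For the 10 genes the median level was 477, 584, 454 and 684 TPM in the same order, while the median of the 6523 genes was 26.5, 37.9, 26.2 and 39.0 TPM. *Junb* was the highest of the 10 in every library and ranked between 36 and 59 among the 6523 genes. *Fosl2* was the lowest in every library, and its rank was between 537 and 743. The level of a gene differed between its highest and lowest library by 1.14-fold for *Jund* and by 2.27-fold for *Ier3*, the smallest and largest folds of the 10 in TPM, although relative to all genes *Jund* differed most of the 10 between the WT subsets.

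*Fos* (ENSMUSG00000021250, chromosome 12 from 85520664 to 85524047 on GRCm39) encodes the founding FOS subunit, which binds DNA only together with a JUN partner. It was at 1169 TPM in WT SiglecF lo, 1306 TPM in WT SiglecF hi, 869 TPM in *Cd300a-/-* SiglecF lo and 1243 TPM in *Cd300a-/-* SiglecF hi neutrophils. In TPM the *Cd300a-/-* SiglecF lo library was the lowest, though relative to all genes the SiglecF hi library stood below the SiglecF lo library of either genotype. *Fosb* (ENSMUSG00000003545, chromosome 7 from 19036621 to 19043976), whose product pairs with JUN proteins in the same way, was at 378, 559, 379 and 535 TPM in the same order. Its TPM separated the subsets, which relative to all genes it did not do in WT, and the SiglecF lo libraries of the genotypes did not differ beyond counting error. *Fosl2* (ENSMUSG00000029135, chromosome 5 from 32293145 to 32315186) encodes FRA2, a FOS relative without a strong activation domain that usually accumulates later and stays longer than FOS. It was at 210.3, 213, 255 and 269.9 TPM, with both *Cd300a-/-* libraries above both WT libraries in TPM. The WT libraries did not differ beyond counting error in TPM, though relative to all genes the SiglecF hi library stood below the SiglecF lo library of either genotype.

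*Jun* (ENSMUSG00000052684, chromosome 4 from 94937271 to 94940459) encodes c-JUN, the strongest activator among the JUN proteins and a target of JNK. It was at 247 TPM in WT SiglecF lo, 380.0 TPM in WT SiglecF hi, 296 TPM in *Cd300a-/-* SiglecF lo and 421 TPM in *Cd300a-/-* SiglecF hi neutrophils. The SiglecF hi libraries were the higher ones in TPM, though in *Cd300a-/-* not relative to all genes, and within each subset the *Cd300a-/-* library was above the WT library. *Junb* (ENSMUSG00000052837, chromosome 8 from 85701113 to 85705347), whose product is a weaker activator that can restrain c-JUN, was at 2259, 2757, 1973 and 3038 TPM in the same order. The *Cd300a-/-* libraries were its lowest and its highest in TPM. *Junb* overlaps *Prdx2*, which lies on the opposite strand, by 351 bases, and the strand setting of the counting is not given in the sources used here, so reads from the overlap are uncertain. *Prdx2* had between 602 and 1979 counts and *Junb* between 20227 and 43767. *Jund* (ENSMUSG00000071076, chromosome 8 from 71151599 to 71153265), the JUN gene that is expressed in most resting cells, was at 977, 982, 1001 and 1117 TPM. In TPM only the *Cd300a-/-* SiglecF hi library stood above the others, which lay within each other's counting error, though relative to all genes both SiglecF hi libraries stood below the SiglecF lo libraries.

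*Atf3* (ENSMUSG00000026628, chromosome 1 from 190902493 to 190950236) encodes a stress-induced zipper protein that represses many inflammatory genes as a homodimer. It was at 432 TPM in WT SiglecF lo, 582 TPM in WT SiglecF hi, 417 TPM in *Cd300a-/-* SiglecF lo and 678 TPM in *Cd300a-/-* SiglecF hi neutrophils. In TPM the SiglecF hi libraries were above the SiglecF lo libraries, though in WT not relative to all genes, and the SiglecF lo libraries did not differ from each other beyond counting error. *Egr1* (ENSMUSG00000038418, chromosome 18 from 34992876 to 34998037), a zinc finger factor that shares its upstream signals with *Fos*, was at 361, 519, 314 and 524 TPM in the same order. It too was higher in SiglecF hi neutrophils in TPM, though in WT level with the median of all genes, and the genotypes lay within counting error of each other there. *Ier2* (ENSMUSG00000053560, chromosome 8 from 85387960 to 85389483), a nuclear early response gene, was at 522, 585, 491 and 689 TPM. *Ier3* (ENSMUSG00000003541, chromosome 17 from 36132576 to 36133815), which encodes a survival factor that prolongs ERK activity, was at 641, 985, 494 and 1120.5 TPM. For both, the *Cd300a-/-* SiglecF lo library was the lowest and the *Cd300a-/-* SiglecF hi library the highest in TPM.

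**Figure D1:**
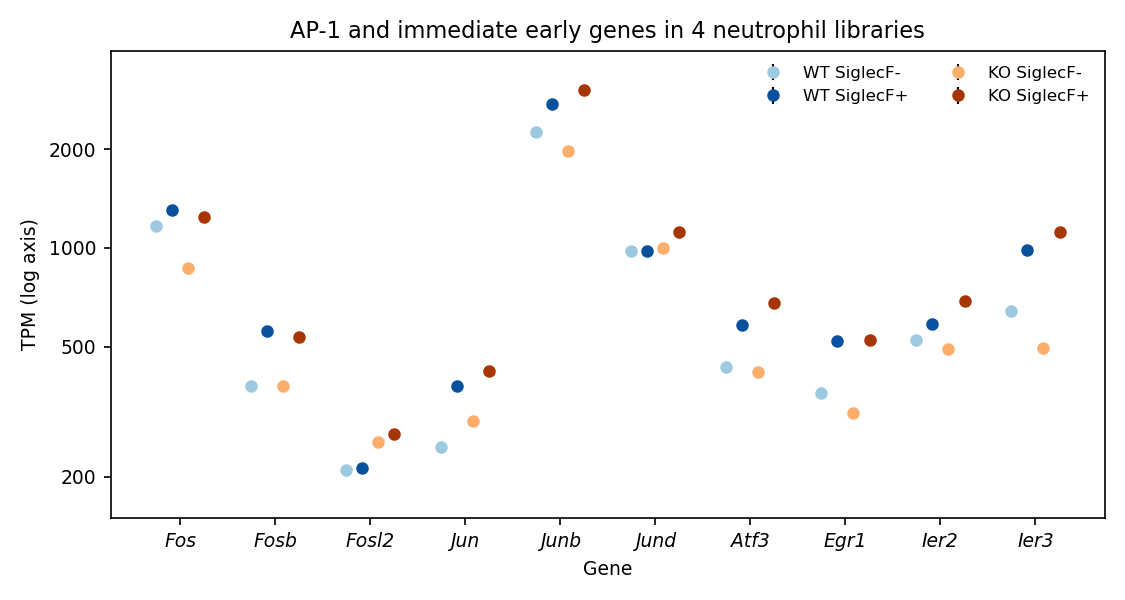
TPM (log axis) of the 10 genes in the 4 libraries, 1 point per library, where KO is *Cd300a-/-*, SiglecF+ is SiglecF hi and SiglecF- is SiglecF lo, with 95% counting intervals as vertical lines mostly hidden by the points. *Junb* is at 1973 to 3038 TPM and *Fosl2* at 210.3 to 269.9 TPM, and *Ier3* spreads most, from 494 to 1120.5 TPM, while relative to all genes the order of the subsets reverses for 4 genes in WT and 6 in *Cd300a-/-*.

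Shares within a library do not depend on the scaling between libraries. Of the summed TPM of *Fos*, *Fosb*, *Fosl1* and *Fosl2*, *Fos* held 65.6% in WT SiglecF lo, 62.5% in WT SiglecF hi, 55.9% in *Cd300a-/-* SiglecF lo and 60.4% in *Cd300a-/-* SiglecF hi neutrophils. The share of *Fos* was smaller in *Cd300a-/-* than in WT neutrophils of either subset, and smallest in the SiglecF lo library, where its 95% counting interval was 55.3% to 56.6%. *Fosl2* held 11.8%, 10.2%, 16.4% and 13.1% in the same order, so its share was larger in the *Cd300a-/-* libraries. *Fosb* held 21.2%, 26.8%, 24.4% and 26.0%. *Fosl1*, which encodes FRA1 and belongs to the AP-1 partners below, held 1.33%, 0.466%, 3.30% and 0.432%. Its share was larger in SiglecF lo neutrophils of either genotype, and largest in *Cd300a-/-* SiglecF lo neutrophils (interval 3.02% to 3.57%). *Fosl1* was under 10 TPM in both SiglecF hi libraries, so no conclusion is drawn from its share between the subsets. Of the JUN family, *Junb* held 64.9%, 66.9%, 60.3% and 66.4%, *Jund* 28.0%, 23.8%, 30.6% and 24.4%, and *Jun* 7.09%, 9.22%, 9.04% and 9.19%. *Jund* thus took a larger share, and *Junb* a smaller one, in SiglecF lo than in SiglecF hi neutrophils of the same genotype. The summed TPM of the JUN family was 1.96 times that of the FOS family in WT SiglecF lo, 1.97 times in WT SiglecF hi, 2.10 times in *Cd300a-/-* SiglecF lo and 2.23 times in *Cd300a-/-* SiglecF hi neutrophils.

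**Figure D2:**
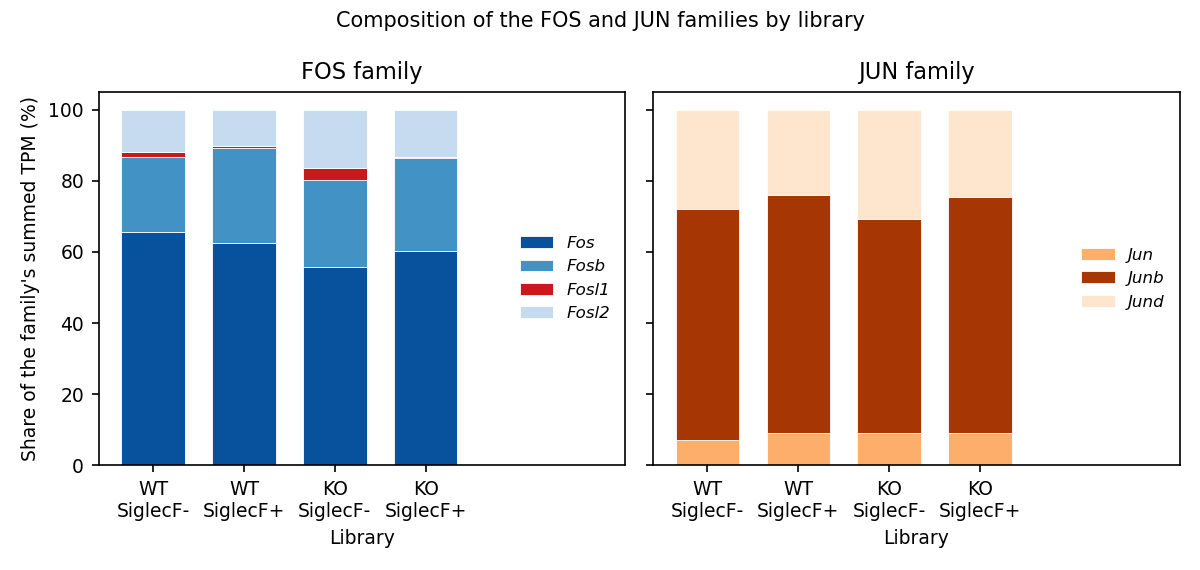
Share of each gene in the summed TPM of its family (percent, axis from 0) in each of the 4 libraries, FOS family on the left and JUN family on the right, named as in the plot of levels. *Fos* holds between 55.9% and 65.6% and *Junb* between 60.3% and 66.9%, and the *Fosl1* segment is largest in *Cd300a-/-* SiglecF lo neutrophils at 3.30%. *Fosl1* is under 10 TPM in both SiglecF hi libraries.

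The comparison of the subsets asks how SiglecF hi neutrophils differ from SiglecF lo neutrophils. Most of the 10 genes were higher in SiglecF hi neutrophils in TPM, but relative to all genes most of them were not. Relative to all genes *Fosl2* and *Jund* stood lowest in both genotypes, and *Ier3* stood highest in *Cd300a-/-* mice. The differences were measured as the log2((TPM + 1) ratio). Over the 6523 genes it had a median of 0.53 for WT and 0.61 for *Cd300a-/-* neutrophils, and the 10 most abundant genes held 22.8% and 26.7% of all TPM in the SiglecF lo libraries against 12.3% and 11.8% in the SiglecF hi libraries. Ratios between the subsets are therefore also given after subtraction of that median, as centred ratios.

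In WT, 4 of the 10 genes, *Fosb*, *Jun*, *Egr1* and *Ier3*, were more than 0.5 higher in SiglecF hi neutrophils and none was lower, while 51.9% of all genes were higher and 7.47% lower. The median of the 10 genes was 0.36. After centring none of the 10 was past 0.5 higher and *Fosl2* and *Jund* were lower, while 19.3% of all genes were higher and 20.9% lower, and the median of the 10 was -0.17. *Fosl2* had a log2 ratio of 0.02, with a 95% counting interval from -0.02 to 0.06, and -0.51 after centring. For *Jund* the log2 ratio was 0.01 (-0.03 to 0.05), and -0.52 after centring. In TPM these genes were thus level between the WT subsets, and relative to all genes they were the lowest of the 10. *Fos* and *Ier2* had log2 ratios of 0.16 and 0.17 and centred ratios of -0.37 and -0.36. *Junb* had 0.29 and -0.24, and *Atf3* 0.43 and -0.10. The sign for *Fos*, *Ier2*, *Junb* and *Atf3* depended on the scaling, higher in TPM and lower after centring or TMM scaling. The ratio of *Egr1* was 0.52 in TPM and -0.01 after centring, at the middle of all genes. *Jun* and *Ier3*, each with a log2 ratio of 0.62 and a centred ratio of 0.09, stayed higher in SiglecF hi neutrophils beyond counting error in TPM, after centring and with TMM scaling. *Fosb*, with 0.56 in TPM, lay within counting error of all genes at 0.04 after centring and 0.02 with TMM scaling.

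In *Cd300a-/-* mice, 6 of the 10 genes, *Fos*, *Jun*, *Junb*, *Atf3*, *Egr1* and *Ier3*, were past 0.5 higher in SiglecF hi neutrophils and none was lower, while 56.6% of all genes were higher and 7.97% lower. The median of the 10 was 0.51. *Fosb* and *Ier2*, at 0.50 and 0.49, lay just under the threshold. After centring *Ier3* was past 0.5 higher and *Fosl2* lower, while 21.2% of all genes were higher and 23.6% lower, and the median of the 10 was -0.10. *Ier3* had a log2 ratio of 1.18 (interval 1.12 to 1.24), a centred ratio of 0.57 and a TMM-scaled ratio of 0.60. No other gene of the 10 had as large a ratio between the *Cd300a-/-* subsets in TPM, after centring or with TMM scaling. *Egr1* had a log2 ratio of 0.74 and a centred ratio of 0.12, *Atf3* had 0.70 and 0.09, and *Junb* had 0.62 and 0.01. *Fosl2* had a log2 ratio of 0.08 and a centred ratio of -0.53, and *Jund* had 0.16 and -0.45, so that these changed sign with the scaling and were again lowest among the 10 relative to all genes. *Fos*, *Fosb*, *Jun* and *Ier2* changed sign as well, with TPM ratios between 0.49 and 0.52 and centred ratios between -0.13 and -0.10. The absolute centred ratio had a median over the 10 genes of 0.17 for WT and 0.12 for *Cd300a-/-*, against 0.39 and 0.45 over all genes.

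Other cell types' markers moved with the subset. After centring, 5 of the 8 macrophage markers were past 0.5 higher in WT SiglecF hi neutrophils and 1 lower, with a median of 0.75, and 3 were higher and 1 lower in *Cd300a-/-*, with a median of 0.38. In TPM 5 were higher and 1 lower in WT (median 1.27), and 7 were higher and none lower in *Cd300a-/-* (median 1.00). Of the 5 fibroblast markers tested, 3 were higher in WT and none lower (median 0.60), and in *Cd300a-/-* none was higher and 1 lower (median -0.24). In TPM 5 were higher in WT (median 1.12) and 2 in *Cd300a-/-* (median 0.37), and none was lower. Of the 6 endothelial cell markers tested, 6 were lower in WT SiglecF hi neutrophils (median -1.30), against 5 in TPM (median -0.77). In *Cd300a-/-* 1 was higher and none lower (median 0.09), against 5 higher in TPM (median 0.71). Of the 4 monocyte markers 2 were lower in each genotype and none higher, with medians of -0.46 in WT and -0.19 in *Cd300a-/-*. In TPM 1 was lower in each genotype and 2 were higher in *Cd300a-/-*, with medians of 0.07 and 0.43, and *Ly6c2* had centred ratios of -2.01 and -2.25. Of the 3 cardiomyocyte markers tested, none was higher and 2 were lower in WT after centring (median -0.75), against 1 higher and none lower in TPM (median -0.22). In *Cd300a-/-* 1 was higher and none lower after centring (median 0.11), against 2 higher in TPM (median 0.72). *Tnnt2*, the 1 higher after centring and the 1 higher in WT in TPM, was over 10 TPM only in the SiglecF hi libraries. No conclusion is drawn from it. *Ear2*, the eosinophil marker tested, had centred ratios of -1.16 and -0.22, and -0.63 and 0.39 in TPM. *Ccr3*, an eosinophil marker under the limit, was higher in SiglecF hi neutrophils, with centred ratios of 0.72 and 0.61, and 1.25 and 1.22 in TPM. *Il5ra*, with at most 12 counts, had centred ratios of -0.82 and -0.47. After centring, 8 of the 10 neutrophil markers were lower in WT SiglecF hi neutrophils (median -2.37) and 9 in *Cd300a-/-* (median -2.56), and *Siglecf* was higher in both. In TPM 6 were lower in WT (median -1.85) and 8 in *Cd300a-/-* (median -1.95). The part of these in the levels of the AP-1 genes was not tested. In bulk RNA, fewer cells of a type and less RNA per cell cannot be told apart.

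**Figure D3:**
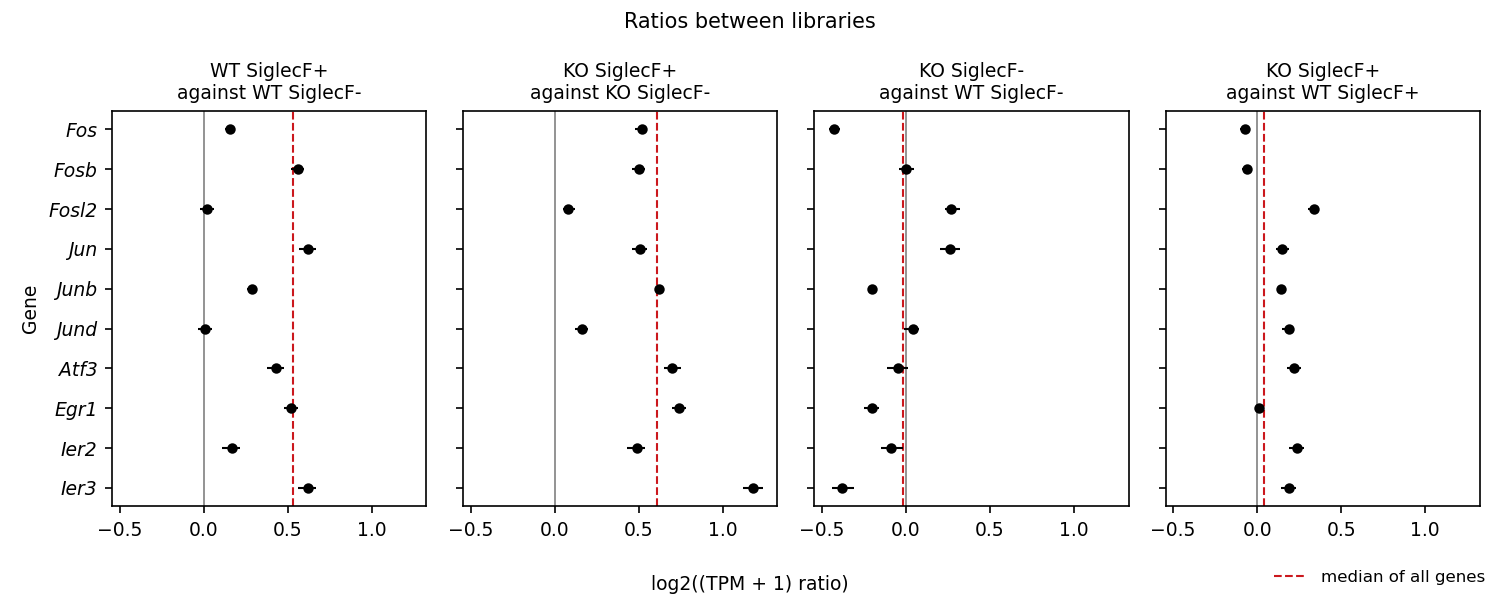
The log2((TPM + 1) ratio) of the 10 genes in the 4 comparisons, 1 point per gene with its 95% counting interval, named as in the plot of levels, with the median of all 6523 genes as a dashed line at 0.53, 0.61, -0.02 and 0.04 from left to right. Between the subsets most points are above 0 but near or below the dashed line, so their direction depends on the scaling, and between the genotypes every point is between -0.43 and 0.34.

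The comparison of the genotypes asks what the loss of CD300a changes within each subset. None of the 10 genes was past 0.5 in either direction in either subset, under TPM, centring or TMM scaling. In SiglecF lo neutrophils *Fos* and *Ier3* were the lowest in *Cd300a-/-* relative to WT, and *Fosl2* and *Jun* the highest. In SiglecF hi neutrophils *Fosl2* was the highest, and *Fos* and *Fosb* the lowest. In SiglecF lo neutrophils 16.4% of all genes were past 0.5 higher and 19.9% lower in *Cd300a-/-*, and in SiglecF hi neutrophils 3.31% were higher and 3.46% lower. The median of all genes was -0.02 and 0.04, and that of the 10 genes -0.07 and 0.17.

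In SiglecF lo neutrophils, the log2 ratio of *Fos* was -0.43 (95% counting interval -0.46 to -0.39), with the *Cd300a-/-* level 0.744 times the WT level. *Ier3* had -0.38 (-0.44 to -0.31), *Egr1* -0.20 (-0.25 to -0.16), *Junb* -0.20 (-0.22 to -0.17) and *Ier2* -0.09 (-0.15 to -0.02). These 5 genes were lower in the *Cd300a-/-* library beyond counting error under all 3 scalings, as were 37.2% of all genes. The interval of *Ier2* ended close to 0. It would be wider if both reads of a pair were counted, which is not known, so the call of *Ier2* is uncertain. *Fosl2*, at 0.27 (0.23 to 0.32), and *Jun*, at 0.26 (0.20 to 0.32), were higher under all 3 scalings, as were 37.2% of all genes. The intervals of the 10 genes are narrower than those of less abundant genes, so these shares are not matched for precision. The intervals of *Fosb* (0.00), *Jund* (0.04) and *Atf3* (-0.05) held 0 in TPM, and that of *Jund* lay above 0 after centring or TMM scaling. Genes of the FOS and JUN families thus lay on both sides of 0. Endothelial cell markers differed between these libraries as well. Of 6 tested, 5 were past 0.5 lower in *Cd300a-/-* and none higher, with a median of -1.26, and *Pecam1* fell from 57.5 TPM in the WT library to 15.6 TPM in the *Cd300a-/-* library. Of the 10 neutrophil markers 4 were higher and none lower, with a median of 0.42. Of the 8 macrophage markers 1 was higher and 1 lower (median 0.01), of the 4 monocyte markers none higher and 1 lower (median -0.23), and of the 5 fibroblast markers 1 higher and none lower (median -0.04). Of the 3 cardiomyocyte markers none was higher and 1 lower (median -0.31), and *Ear2* had -0.98. The part of these in the ratios of the AP-1 genes was not tested.

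In SiglecF hi neutrophils, 7 of the 10 genes were higher in *Cd300a-/-* than in WT beyond counting error under all 3 scalings, and all by less than 0.5, while 31.4% of all genes were higher and 25.4% lower by the same criterion. As in SiglecF lo neutrophils, these shares are not matched for precision. *Fosl2* had a log2 ratio of 0.34 (0.30 to 0.37), *Ier2* 0.24 (0.19 to 0.28) and *Atf3* 0.22 (0.18 to 0.26). *Jund* and *Ier3* had 0.19 each, *Jun* 0.15 and *Junb* 0.14. *Fos* (-0.07, interval -0.10 to -0.04) and *Fosb* (-0.06, interval -0.09 to -0.03) were lower, and the interval of *Egr1* (0.01, interval -0.01 to 0.04) held 0. Among these libraries 3 of the 5 fibroblast markers tested were past 0.5 lower in *Cd300a-/-* and none higher (median -0.64). Of the 6 endothelial cell markers tested 2 were higher and none lower (median 0.43), and 3 of the 10 neutrophil markers were higher and none lower (median 0.20). In each of the macrophage, monocyte and cardiomyocyte lists 1 marker was higher and none lower (medians -0.09, -0.12 and 0.41), and *Ear2* had 0.04. The part of these markers in the ratios of the AP-1 genes was not tested.

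The genotype ratio in SiglecF lo neutrophils less that in SiglecF hi neutrophils was negative for 8 of the 10 genes, and negative for 54.0% of all genes. Its median was -0.25 over the 10 genes and -0.05 over all genes. *Ier3* had the largest difference, -0.56 (95% counting interval -0.64 to -0.48), and *Fos* followed with -0.36 (-0.40 to -0.31), *Junb* with -0.34 (-0.37 to -0.30) and *Ier2* with -0.32 (-0.40 to -0.25). *Atf3*, *Egr1* and *Jund* had -0.27, -0.22 and -0.15. *Fosl2*, at -0.06 (-0.12 to -0.01), was higher in *Cd300a-/-* neutrophils of both subsets by nearly the same ratio. *Jun* (0.11) and *Fosb* (0.07) were the positive values. For *Ier3*, *Junb* and *Ier2*, 3 of the 10 genes, the ratios had opposite signs in the subsets beyond counting error under all 3 scalings, as for 13.5% of all genes. For *Ier2* this rests on an interval that ended close to 0 in SiglecF lo neutrophils. With 1 library per corner of the design these differences could not be tested.

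Among the genes whose profile over the 4 libraries lay nearest to the mean profile of the 10 genes were *Brms1*, *Snx14*, *Lin7c* and *Trabd*, at Euclidean distances of 0.033 to 0.039 in log2(TPM + 1) centred per gene. The mean profile was -0.18 in WT SiglecF lo, 0.16 in WT SiglecF hi, -0.26 in *Cd300a-/-* SiglecF lo and 0.29 in *Cd300a-/-* SiglecF hi neutrophils. *Junb*, the nearest of the 10 to their own mean, was 0.085 from it, with 29 other genes nearer, and *Ier3* and *Fosl2*, the farthest, were 0.503 and 0.487 away. Genes outside the 10 thus lay nearer to the mean profile than any of the 10 did. The profile is in TPM, so it includes the higher level in SiglecF hi neutrophils that most genes share on that scale.

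Other basic leucine zipper proteins can pair with FOS and JUN or compete for their sites, and 10 of 13 such partners passed the limit. For this and the lists below, 51.9% of all genes were past 0.5 higher in WT SiglecF hi neutrophils in TPM and 7.47% lower. After centring these shares were 19.3% and 20.9%. In *Cd300a-/-* they were 56.6% and 7.97% in TPM, and 21.2% and 23.6% after centring. Those between the genotypes are given above. *Fosl1* was at 23.7 TPM in WT SiglecF lo, 9.72 TPM in WT SiglecF hi, 51.2 TPM in *Cd300a-/-* SiglecF lo and 8.88 TPM in *Cd300a-/-* SiglecF hi neutrophils, from 227, 159, 541 and 130 counts. It was under 10 TPM in both SiglecF hi libraries and so passed the limit only through the SiglecF lo libraries. No conclusion is therefore drawn from its ratios between the subsets. Its log2 ratio of *Cd300a-/-* to WT was 1.08 (0.86 to 1.30) in SiglecF lo and -0.12 (-0.42 to 0.18) in SiglecF hi neutrophils. Between the WT subsets 5 partners were past 0.5 higher and 1 lower in TPM (median 0.49), and 3 higher and 3 lower after centring (median -0.03). *Maf*, a large MAF protein of macrophages, had a centred ratio of 0.75, and *Fosl1*, *Mafk*, a small MAF protein without an activation domain, and *Jdp2*, a JUN-binding repressor, had -1.73, -0.66 and -0.56. In TPM *Mafk* and *Jdp2* were nearly level, at -0.13 and -0.03. In *Cd300a-/-* 6 were higher and 1 lower in TPM (median 0.56), and 1 higher and 3 lower after centring (median -0.06), with *Fosl1* at -3.02. Between the genotypes, *Fosl1* and *Atf2*, at 0.51, were past 0.5 higher in SiglecF lo neutrophils and none was lower (median 0.10). In SiglecF hi neutrophils no partner was past 0.5 (median 0.11), and *Mafk* had the largest centred ratio, 0.38.

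Of 30 other immediate early genes, 27 passed the limit. Between the WT subsets 12 were past 0.5 higher and 2 lower in TPM (median 0.35), but 3 higher and 6 lower after centring (median -0.18). In *Cd300a-/-* 12 were higher and 1 lower in TPM (median 0.40), but 6 higher and 7 lower after centring (median -0.21). Among them, *Egr3*, a relative of *Egr1*, was at 59.3 TPM in WT SiglecF lo, 161 TPM in WT SiglecF hi, 51.3 TPM in *Cd300a-/-* SiglecF lo and 146 TPM in *Cd300a-/-* SiglecF hi neutrophils, with a centred ratio of 0.90 in WT. *Nr4a2*, an orphan nuclear receptor, was at 58.4, 136, 44.2 and 156 TPM in the same order, with a centred ratio of 1.18 in *Cd300a-/-*. Both were higher in SiglecF hi neutrophils. *Gadd45a*, a growth arrest gene, was at 461, 227, 439.5 and 279.9 TPM, with centred ratios of -1.55 in WT and -1.26 in *Cd300a-/-*. It was higher in SiglecF lo neutrophils, as were *Btg1*, an antiproliferative gene (-1.21 in WT), and *Plk3*, a stress-responsive polo-like kinase (-0.95 in WT and -1.01 in *Cd300a-/-*). Between the genotypes *Ier5l* alone was past 0.5 in SiglecF lo neutrophils in TPM and after centring, while TMM scaling added *Plk2*, another polo-like kinase, at 0.51. *Ier5l* was lower, with a log2 ratio of -0.91 (-1.21 to -0.61) from 201 and 111 counts. It was at 14.6 and 11.9 TPM in the WT libraries and at 7.30 and 8.68 TPM in the *Cd300a-/-* libraries. It thus passed the limit only through WT, and no conclusion is drawn from it. No gene of the list was past 0.5 in SiglecF hi neutrophils, where *Ccn2* had -0.45 and *Nr4a3* 0.49. The medians were -0.03 and 0.18.

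Of 21 MAP kinases and serum response factors, which lie upstream of these genes, 17 passed the limit. In WT SiglecF hi neutrophils 3 were past 0.5 higher and 2 lower in TPM (median 0.04), but 2 higher and 8 lower after centring (median -0.48). In *Cd300a-/-* 7 were higher and 2 lower in TPM (median 0.29), but 1 higher and 8 lower after centring (median -0.32). *Map2k3*, which activates p38, had a centred ratio of -1.09 in WT, and *Map2k4*, which activates JNK and p38, had -1.15 in *Cd300a-/-*, both lower in SiglecF hi neutrophils also in TPM, at -0.56 and -0.54. *Map2k7* and *Mapk9*, of the JNK branch, were the 2 higher genes in WT after centring, with 0.95 and 0.76, while *Map2k4* had -0.50. Both higher genes passed the limit only through the SiglecF hi libraries, so no conclusion is drawn from them. In WT SiglecF lo neutrophils *Map2k7* was at 4.80 TPM and *Mapk9* at 7.49 TPM, from 93 and 183 counts. Between the genotypes in SiglecF lo neutrophils *Map3k5* (0.66) and *Mapk14* (0.57), which encode ASK1 and p38 alpha, were higher and *Elk3* (-0.56) and *Map2k1* (-0.55) lower in *Cd300a-/-*, 2 genes in each direction in TPM (median 0.09), while centring gave 3 higher and 2 lower and TMM scaling 4 higher and 2 lower. In SiglecF hi neutrophils *Elk4*, a ternary complex factor, was past 0.5 higher with 0.57 and none was lower (median 0.12).

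Feedback inhibitors of MAP kinases are themselves induced early, and 7 of 13 passed the limit. *Dusp1*, the phosphatase that acts on p38 and JNK, was at 1796 TPM in WT SiglecF lo, 1700.0 TPM in WT SiglecF hi, 1591 TPM in *Cd300a-/-* SiglecF lo and 1698 TPM in *Cd300a-/-* SiglecF hi neutrophils, levels between those of *Fos* and *Junb* in each library. *Dusp2* was at 141, 419, 135 and 433 TPM in the same order, and *Dusp6*, the cytoplasmic phosphatase of ERK, at 246, 153, 339.7 and 180.2 TPM. *Dusp2* was thus higher and *Dusp6* lower in SiglecF hi neutrophils, with centred ratios of 1.04 and -1.21 in WT and 1.06 and -1.52 in *Cd300a-/-*. In WT 2 genes were past 0.5 higher and 1 lower in TPM (median 0.18), but 1 higher and 2 lower after centring (median -0.35). In *Cd300a-/-* 2 were higher and 2 lower in TPM (median 0.19), but 1 higher and 3 lower after centring (median -0.42). Between the genotypes *Spry2*, at 1.23 (0.89 to 1.57) in SiglecF lo neutrophils from 73 and 205 counts, was the only gene past 0.5 (median 0.19), and none was past 0.5 in SiglecF hi neutrophils (median 0.21), where *Dusp16* had 0.47.

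Of 16 genes known as AP-1 targets in other settings, 14 passed the limit. Between the WT subsets 8 were past 0.5 higher and 2 lower in TPM (median 0.79), but 3 higher and 6 lower after centring (median 0.27). In *Cd300a-/-* 10 were higher and 1 lower in TPM (median 0.74), but 2 higher and 3 lower after centring (median 0.12). *Spp1*, which encodes osteopontin, was at 1349 TPM in WT SiglecF lo, 4111 TPM in WT SiglecF hi, 884 TPM in *Cd300a-/-* SiglecF lo and 2815 TPM in *Cd300a-/-* SiglecF hi neutrophils. *Plau*, the urokinase gene, was at 27.4, 93.1, 57.3 and 121 TPM in the same order, and *Plaur*, which encodes its receptor, at 618, 382, 666 and 391 TPM. The enzyme and its receptor thus lay on opposite sides, *Plau* higher in SiglecF hi neutrophils with a centred ratio of 1.20 in WT and *Plaur* higher in SiglecF lo neutrophils with -1.22. Between the genotypes in SiglecF lo neutrophils 4 were past 0.5 higher and 4 lower in *Cd300a-/-* (median -0.04), among them *Il6* at -1.86 (-2.07 to -1.64), *Ccnd1*, the cyclin D1 gene, at -1.42 (-1.63 to -1.21), *Plau* at 1.04 and *Mmp9* at 0.65. In SiglecF hi neutrophils *Hbegf* (0.56) was higher and *Timp1* (-0.61) and *Spp1* (-0.55) were lower (median 0.15). *Hbegf* was over 10 TPM only in WT SiglecF lo (12.2 TPM) and *Cd300a-/-* SiglecF hi neutrophils (14.4 TPM), so no conclusion is drawn from it.

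Heat shock genes are induced together with AP-1 genes when tissue is dissociated at warm temperature, and 9 of 10 passed the limit. *Hspa8*, the constitutive member, was at 982 TPM in WT SiglecF lo, 1319 TPM in WT SiglecF hi, 879 TPM in *Cd300a-/-* SiglecF lo and 1209 TPM in *Cd300a-/-* SiglecF hi neutrophils. The inducible *Hspa1a* was at 59.4, 55.6, 37.9 and 51.2 TPM in the same order, and *Hspa1b* at 14.9, 38.1, 35.7 and 32.6 TPM. *Hspa1a* and *Hspa1b* are near-identical copies whose reads the counting may have split, so their single values are uncertain. Their summed TPM was 74.3, 93.6, 73.6 and 83.8 in the same order, and both stood below each of the 10 AP-1 and early response genes in every library. In *Cd300a-/-* SiglecF lo neutrophils 19.9% of all genes were past 0.5 lower than in WT and 16.4% higher. Among the heat shock genes 4 were lower and 1 was higher (median -0.43). Of these, *Hspd1* had -0.88 (-1.06 to -0.70), *Hspe1* -0.82 (-1.05 to -0.59), *Hspb1* -0.73, *Hspa1a* -0.64 and *Hspa1b* 1.21 (1.00 to 1.43). Without the near-identical pair, 3 of 7 were lower and none higher (median -0.43). In SiglecF hi neutrophils none was past 0.5 between the genotypes (median -0.12). In WT SiglecF hi neutrophils 3 were higher and 1 lower in TPM (median 0.24), but 1 higher and 3 lower after centring (median -0.28). In *Cd300a-/-* 3 were higher and none lower in TPM (median 0.42), while 2 were higher and 1 lower after centring (median -0.19). Without the near-identical pair, 2 of 7 were higher and 1 lower in TPM (median 0.24) and none higher and 2 lower after centring (median -0.28) in WT. In *Cd300a-/-* 3 of 7 were higher and none lower in TPM (median 0.46), and 2 higher and none lower after centring (median -0.15). The heat shock genes thus had a negative median in the comparison in which *Fos*, *Ier3*, *Egr1*, *Junb* and *Ier2* were lower, and their part in that result was not tested.

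The promoters of 8 of the 10 genes, all but *Egr1* and *Ier2*, were matched in the RefSeq table on GRCm38.p6, as 300 bases from 250 before to 50 after the start. Both strands were searched. The core of the cyclic AMP response element, TGACG, was found in *Fos*, *Fosb*, *Junb* and *Atf3*, and in 20.8% of the 32851 promoters of the table. In *Fos* it began at -129 and -66, in *Fosb* at -60, in *Junb* at -106 and, on the reverse strand, in *Atf3* at -7. The AP-1-like element TGACATCA was found in *Jun* alone, from -45, and in 3.62% of all promoters. GCGNGGGCG, which EGR1 binds, was found in *Fosb* at -50 and *Fosl2* at -79, and in 5.55% of all promoters, and TATAAA in *Fos* at -33 and *Junb* at 1, and in 13.6%. The full element TGACGTCA, which contains TGACG, the AP-1 site TGANTCA and the CArG box of serum response factor were found in none of the 8 windows, and in 1.79%, 7.81% and 1.63% of all promoters. A match is only a match of letters, and a window without one says nothing about the factor. The 150 bases before the start are printed for the 4 genes of the FOS and JUN families that hold TGACG or TGACATCA, so that the elements can be seen in their context. Capitals mark TGACG in *Fos*, *Fosb* and *Junb* and TGACATCA in *Jun*. The sequences are those of chr12:85473740-85473889 (plus strand) for *Fos*, chr7:19310046-19310195 (minus strand) for *Fosb*, chr8:84978749-84978898 (minus strand) for *Junb* and chr4:95052223-95052372 (minus strand) for *Jun*.
Fos: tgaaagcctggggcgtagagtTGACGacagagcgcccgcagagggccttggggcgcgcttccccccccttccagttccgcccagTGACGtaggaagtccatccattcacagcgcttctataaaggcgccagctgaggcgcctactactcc
Fosb: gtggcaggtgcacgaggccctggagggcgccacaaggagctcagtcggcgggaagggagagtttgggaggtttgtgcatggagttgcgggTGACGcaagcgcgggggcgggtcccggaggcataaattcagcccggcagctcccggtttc
Junb: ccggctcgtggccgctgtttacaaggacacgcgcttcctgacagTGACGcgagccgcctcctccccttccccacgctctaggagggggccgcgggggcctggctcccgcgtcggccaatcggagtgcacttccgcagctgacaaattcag
Jun: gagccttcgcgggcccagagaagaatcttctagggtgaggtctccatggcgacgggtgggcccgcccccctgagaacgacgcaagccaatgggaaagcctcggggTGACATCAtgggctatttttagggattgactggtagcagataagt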

How the data were processed

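The authors deposited, for each gene, counts as whole numbers without normalization, and whether these count reads or fragments is not given in the sources used here. They also deposited RPKM, TPM, which has the same sum in each library, and a signal in a column named CPM, which is counts over the library total times 1 factor per library. RNA was poly(A)-selected and sequenced as paired ends, and the authors used CLC Genomics Workbench. Per the labels the genome build is GRCm39. The annotation release, mapping settings and strand setting are not given in the sources used here. Results rest on counts and TPM, and RPKM and the signal entered none.

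Differences were computed as log2((TPM + 1) ratio) for genes with a mean TPM over 10, and counted past 0.5. This scale understates changes of low genes. The 95% intervals come from the Poisson error of both counts by the delta method, and those of TPM are exact Poisson intervals. The 4 comparisons were of the subsets within each genotype and of the genotypes within each subset. Alternatives were centring on the median of all genes tested, TMM-scaled CPM (edgeR 4.0.16, R 4.3.3), a pseudocount of 0.1, a mean TPM over 1, TPM over 10 in both libraries compared, no filter, and a threshold of 1. Reads carry no molecular identifiers, so intervals cover counting error only. If both reads of a pair were counted, the intervals are too narrow. The interval calculation was tested on simulated counts, which do not cover the difference between mice or between preparations.

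The 10 genes, the 6 pathway lists and the 8 marker lists were chosen with earlier results of these data known. Genes were named by a rule. It took the 10 genes, up to 4 genes per pathway list and comparison with the largest absolute centred ratio, the most abundant marker of each cell type and the markers at 0, the sorting markers, *Cd300a* and the 5 genes of nearest profile. Of the pathway genes it gave, the examples printed, and any further comparison printed for such a gene, were chosen after their values were seen, as was *Prdx2* for its overlap with *Junb*. Some genes that the rule gave are not reported here. Python 3.11.15, numpy 2.4.6, pandas 2.3.3, scipy 1.17.1 and matplotlib 3.10.9 were used.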

Additional observations from a re-analysis of the deposited data

Results flagged for a closer look

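For 13 of the 82 genes that the naming rule and the overlap with *Junb* gave, the genotype ratio pointed in opposite directions in the subsets, beyond counting error in TPM, after centring and with TMM scaling. Most of the 82 were taken for the size of their ratios, so this share is not comparable with that of all genes. The difference between the subsets was not tested for any of them, because each is a difference of single libraries. The values are the log2 ratio of *Cd300a-/-* to WT in SiglecF lo less that in SiglecF hi neutrophils. Among the 10 AP-1 and early response genes these were *Ier3*, at -0.56 from ratios of -0.38 and 0.19, *Junb*, at -0.34 from -0.20 and 0.14, and *Ier2*, at -0.32 from -0.09 and 0.24. They are 3 of the 10 genes, while 13.5% of all genes met the same criterion, a share not matched for precision. The interval of *Ier2* in SiglecF lo neutrophils ended close to 0. Lower in SiglecF lo and higher in SiglecF hi *Cd300a-/-* neutrophils were also *Hbegf* (-1.15), which encodes a growth factor of the EGF family, *Map2k1* (-0.86), the ERK kinase MEK1, *Nr4a2* (-0.59), *Spred1* (-0.51), an inhibitor of ERK signalling, *Map3k8* (-0.50), which encodes TPL2, *Ptgs2* (-0.49), the inducible cyclooxygenase, and *Btg1* (-0.30). The endothelial cell marker *Pecam1* (-2.20), at -1.82 and 0.38, had the largest such difference, and the 6 endothelial cell markers tested had a median genotype ratio of -1.26 in the SiglecF lo comparison and 0.43 in the other. Their part in the other values was not tested. The reverse held for *Spry2* (1.57), a feedback inhibitor of receptor tyrosine kinases, and *Hspa1b* (1.43). *Hspa1b* is uncertain, since reads may be split with its near-identical copy *Hspa1a*, and their summed TPM in SiglecF lo neutrophils was 74.3 in WT and 73.6 in *Cd300a-/-*. *Spry2* had only 73 counts in WT SiglecF lo neutrophils and *Hbegf* 104 in *Cd300a-/-* SiglecF lo neutrophils, so their values are less precise than those of *Junb*, with at least 20227 counts in each library. *Hbegf* was over 10 TPM only in WT SiglecF lo and *Cd300a-/-* SiglecF hi neutrophils, the higher side of each genotype ratio. No conclusion is drawn from it.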

How the results depend on the processing

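Between the genotypes, no count of the 10 genes past the threshold moved under any alternative. In SiglecF lo neutrophils the median of the 10 went from -0.07 to -0.05 with centring and -0.04 with TMM scaling. The median in SiglecF hi neutrophils went from 0.17 to 0.13 and 0.15. Single ratios in SiglecF hi neutrophils moved with centring, among them *Fos* from -0.07 to -0.11 and *Fosb* from -0.06 to -0.10. None of them turned beyond counting error. Between the subsets the scaling moved the results. In WT, where 4 genes were higher and 0 lower with a median of 0.36, centring gave 0 higher, 2 lower and a median of -0.17, and TMM scaling gave 0 higher, 2 lower and -0.18, so the median changed sign. In *Cd300a-/-*, where 6 were higher and 0 lower with a median of 0.51, centring gave 1 higher, 1 lower and a median of -0.10, and TMM scaling gave 1 higher, 0 lower and -0.07, so this median changed sign too. Of the genes past 0.5 in TPM, *Egr1* in WT changed sign, within counting error, to -0.01 with centring and -0.02 with TMM scaling, and beyond it *Fos* in *Cd300a-/-* to -0.10 and -0.07, and *Jun* in *Cd300a-/-* to -0.11 and -0.07. Of the other ratios, centring turned beyond counting error *Fos* (0.16 to -0.37), *Ier2* (0.17 to -0.36), *Junb* (0.29 to -0.24) and *Atf3* (0.43 to -0.10) in WT, and *Fosl2* (0.08 to -0.53), *Jund* (0.16 to -0.45), *Fosb* (0.50 to -0.12) and *Ier2* (0.49 to -0.13) in *Cd300a-/-*. These changes follow from subtracting the median of all genes, 0.53 in WT and 0.61 in *Cd300a-/-*, or from the TMM factors. A threshold of 1 left 0 genes higher in WT and 1 in *Cd300a-/-*. The pseudocount and the filters on low values changed no count, and no median as printed, since all 10 genes were far above the filters. No paired analysis was possible because each group has 1 library and the result comes from no test. The depth of at least 3167 counts per gene makes counting error small, and the variation between preparations is unknown.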
